A study of Mus musculus with 2 samples.

Results

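Among mouse spleen cells taken after treatment with an antibody against IL-2, 88 CD4 cells carried transcripts of Cxcr5, out of 3239 cells in the study's pair of libraries. They were chosen on 4 genes of the anti-IL-2 library, where a deposited value above 0.7 was read as a detected gene. A cell had to have 200 or more detected genes, Cd4 above 0.7, Cd8a and Cd8b1 at or below 0.7, and Cxcr5 above 0.7. The 88 cells were 29.0% (exact 95% interval 24.0 to 34.5) of the 303 CD4 cells of that library, and the 215 CD4 cells without Cxcr5 were the reference. Because Cd4, Cd8a, Cd8b1 and Cxcr5 chose the cells, their values are description only.

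The cells came from a model of haematopoietic cell transplantation. Spleen and bone marrow of wild-type (WT) C57BL/6 mice were injected into lethally irradiated WT BALB/C mice, which then received either tacrolimus, a calcineurin inhibitor, or an anti-IL-2 monoclonal antibody from day 0 to day 6. Spleen cells labelled as T cells were taken on day 6, so irradiation and transplantation were shared by both groups and no untreated group was analysed here. The labels call the cells donor cells, give no ages or number of animals, and list 1 library per treatment, of 1551 anti-IL-2 and 1688 tacrolimus cells. Cells of 1 library are not replicates, so no test was made between groups of cells: shares are given with exact (Clopper-Pearson) 95% intervals, which cover counting error only.

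Follicular helper T cells are CD4 cells that enter B-cell follicles and help B cells make antibody. CXCR5, the receptor for the follicular chemokine CXCL13, guides them there, the repressor BCL6 sets their programme, and TCF-1 (encoded by Tcf7) acts early in that programme. They are also known for the receptors PD-1 and ICOS, for the ligand CD40L and for the cytokine IL-21, while IL-2 signalling through STAT5 restrains their formation.

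The deposited Cxcr5 values (natural log, shifted by batch integration) fell into separate ranges among CD4 cells. In the 88 Cxcr5-positive cells the lowest was 0.751, the median 1.473 and the highest 2.951 (SD 0.557 over cells). In the 215 Cxcr5-negative cells the lowest was -1.139, the median -0.202 and the highest 0. The values just above the threshold were 0.751, 0.807 and 0.83, and the 3 nearest below it were all 0. Cxcr5 lies at chr9:44511787-44561877 (mm10, GENCODE M21). Cells with erythroid or macrophage markers that were in neither the CD4 nor the CD8 class should lack Cxcr5. Cells with both Cd4 and Cd8 were not excluded from this group. In it, 0 of 33 cells had a Cxcr5 value above 0.7, with an exact interval of up to 10.6%. The median number of detected genes was 314 in those cells, 280 in the Cxcr5-positive CD4 cells and 282 in the Cxcr5-negative ones.

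**Figure D1:**
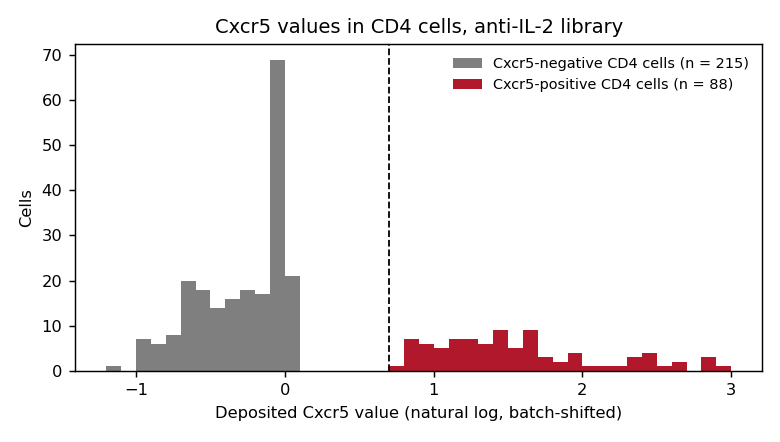
Histogram of the deposited Cxcr5 value (natural log, batch-shifted; x axis) against the number of cells (y axis) in the 303 CD4 cells of the anti-IL-2 library. The dashed line is the threshold of 0.7: the 88 Cxcr5-positive cells (red) start at 0.751 and the 215 Cxcr5-negative cells (grey) end at 0.

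The label was checked against the remaining markers. Cd5, a T-cell surface protein, was detected in 75 of the 88 cells (85.2%) and in 84.2% of Cxcr5-negative CD4 cells. Izumo1r, which encodes folate receptor 4, was detected in 36 of 88 cells, and Sostdc1, which encodes a secreted BMP antagonist made by follicular helper T cells, in 25. Only 6 cells had both, so most of the cells carried at most 1 of this pair. The B-cell genes Cd79a, Cd79b, Ms4a1, Fcmr, H2-Aa and H2-Eb1 were at 0 in all 88 cells, and 0 cells had 2 or more B-cell markers. Cd74, the invariant chain of MHC class II, was in 19.3% of the Cxcr5-positive and 19.1% of the Cxcr5-negative CD4 cells. All 4 measured neutrophil markers and both measured platelet markers were also at 0. The pancreatic enzyme gene Ctrb1 was in 11.4% of Cxcr5-positive against 29.8% of Cxcr5-negative CD4 cells, with 10 of 15 measured acinar genes at 0. Its part in any difference below was not tested.

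Genes were counted as higher or lower by size alone: a share of at least 10% in the higher group and a ratio of shares of at least 1.5. A group with 0 cells was set to 3. Of 760 genes counted, 90 (11.8%) were in more and 167 (22.0%) in fewer Cxcr5-positive than Cxcr5-negative CD4 cells, and the median log2 ratio of shares was -0.01. The balance depended on dividing cells and on values near the threshold. Without dividing cells the counts were 93 higher and 77 lower. Among the 463 counted genes with 5% or fewer of CD4 cells within 0.2 of the threshold, they were 83 higher and 95 lower.

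Follicular genes were in more of the Cxcr5-positive cells. Beside Cxcr5, 19 genes of a 26-gene follicular helper list were measured (Bcl6 was not among them). Of the 16 that could be counted, 8 were higher and 0 lower, against 11.8% of all counted genes higher and 22.0% lower. The list was chosen with earlier results of these data known and holds the label markers Izumo1r and Sostdc1. Its counts are therefore a description and not independent evidence for the label. The median log2 ratio of shares over the 16 genes was 0.61. A cell carried a median of 8 of the 19 genes (range 3 to 14), against 6 in Cxcr5-negative CD4 cells, and 10 or more were found in 23.9% against 9.3% of cells.

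Tox2, a transcription factor that acts in follicular helper differentiation (chr2:163203125-163324170), was detected in 42 of 88 cells, 47.7% (37.0 to 58.6). Among Cxcr5-negative CD4 cells it was detected in 20.9% (15.7 to 27.0), a ratio of 2.28. The 2 intervals did not overlap. How many of all counted genes had intervals without overlap was not counted, here or for the genes below. Izumo1r (chr9:14885814-14903949) was detected in 40.9% (30.5 to 51.9) against 17.2% (12.4 to 22.9), a ratio of 2.38. Its values in the Cxcr5-positive cells ran from -0.99 through a median of 0.05 to 3.58, so it was undetected in most of them. In the erythroid or macrophage-marker cells, Tox2 and Izumo1r were each detected in 2 of 33 (6.06%).

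The IL-6 receptor chain Il6ra was detected in 40.9% (30.5 to 51.9) against 20.0% (14.9 to 26.0), and Il6st, the shared signalling chain gp130, in 30.7% against 16.7%. IL-6 is one of the cytokines that promote follicular helper cells. Sostdc1 (chr12:36314139-36318452) was detected in 28.4% (19.3 to 39.0) against 17.2% (12.4 to 22.9), a ratio of 1.65 with overlapping intervals. P2rx7, an ATP-gated channel that restrains follicular helper cells of Peyer's patches, was detected in 25.0% against 10.7%. The remaining higher genes were Pou2af1, a transcriptional coactivator, at 15.9% against 5.6%, and Angptl2, a secreted protein, at 11.4% against 5.6%. For both the intervals overlapped: 9.0 to 25.2 against 2.9 to 9.5 for Pou2af1, and 5.6 to 19.9 against 2.9 to 9.5 for Angptl2.

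The receptors, ligands and cytokines used to define follicular helper cells did not pass the size rule. For Icos, Pdcd1 and Batf the Cxcr5-negative share was too high for a ratio of 1.5 to be reached at all. Icos, a co-stimulatory receptor, was detected in 92.0% (84.3 to 96.7) of Cxcr5-positive and 84.7% (79.1 to 89.2) of Cxcr5-negative CD4 cells. Pdcd1, which encodes PD-1, was detected in 78.4% (68.4 to 86.5) and 68.8% (62.2 to 75.0), with overlapping intervals. Cd40lg was detected in 58.0% (47.0 to 68.4) and 60.5% (53.6 to 67.0). These genes were therefore common in CD4 cells of this library with or without Cxcr5. Il21 was detected in 8 of 88 cells, 9.1% (4.0 to 17.1), against 7.9% (4.7 to 12.4), and a difference was not detectable at this depth. Maf, a transcription factor that drives Il21, was detected in 59.1% (48.1 to 69.5) against 50.2% (43.4 to 57.1). Cd200, Batf and Tox differed by less than a factor of 1.2, and Il4 and Ascl2 were each seen in 3 cells.

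**Figure D2:**
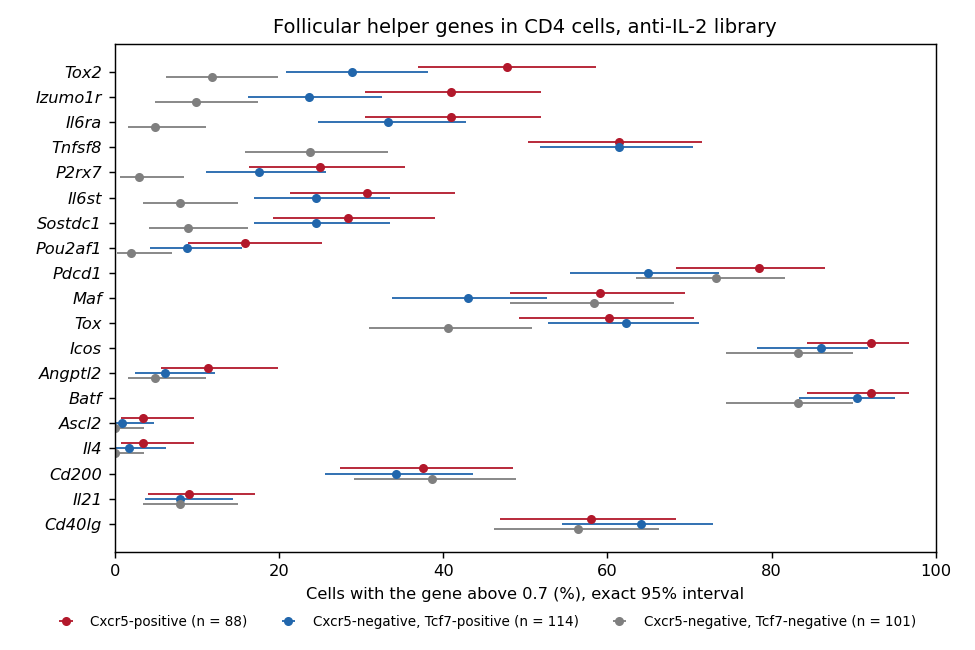
Share of cells (%, x axis) with each of the 19 measured follicular helper genes other than Cxcr5 (y axis), with exact 95% intervals for counting error, in Cxcr5-positive CD4 cells (red) and in Cxcr5-negative CD4 cells with (blue) or without (grey) Tcf7. The red points of Tox2 and Izumo1r, at 47.7% and 40.9%, lie right of the other groups, whereas Tnfsf8 is at 61.4% in both the red and the blue group.

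Outside the follicular list, Matk, which encodes a kinase related to CSK, had the largest gain in percentage points of the 90 higher genes (chr10:81252935-81263365). It was detected in 45 of 88 cells, 51.1% (40.2 to 61.9), against 16.7% (12 to 22.4), a ratio of 3.05. Tcf7 was detected in 74 of 88 cells, 84.1% (74.8 to 91.0), against 53.0% (46.1 to 59.8). Most Cxcr5-positive CD4 cells thus carried this gene of early and memory-like T cells, and the intervals did not overlap. The lysosomal protease gene Ctss was in 76.1% against 47.0%, Nsg2 in 65.9% against 38.1%, and the calcium-binding protein gene Tesc in 58.0% against 30.7%. Ctss was also in 66.7% of the erythroid or macrophage-marker cells, but Matk, Tcf7 and Tesc were each in 6.06% of them. Fam101b was in 50.0% against 25.1%, Zfos1 in 61.4% against 36.7%, and Ikzf2, which encodes the transcription factor Helios, in 45.5% against 21.4%. Zfos1 is an opposite-strand transcript, and whether the authors counted by strand is not known here.

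Detection across the 303 CD4 cells was ranked by its likeness to that of Cxcr5, among 835 genes, with the phi coefficient as a description. Matk came first (0.353), followed by Tcf7 (0.291), Tox2 (0.269), Rgs10 (0.267), Ctss (0.266), Lamp1 (0.26), Tesc (0.254), Nsg2 (0.253), Izumo1r (0.252) and Oasl2 (0.25). These coefficients are low, and the cells share a library and differ in depth. With a minimum of 300 detected genes, which left 29 Cxcr5-positive cells, 2 of these 10 genes were among the first 10.

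**Figure D3:**
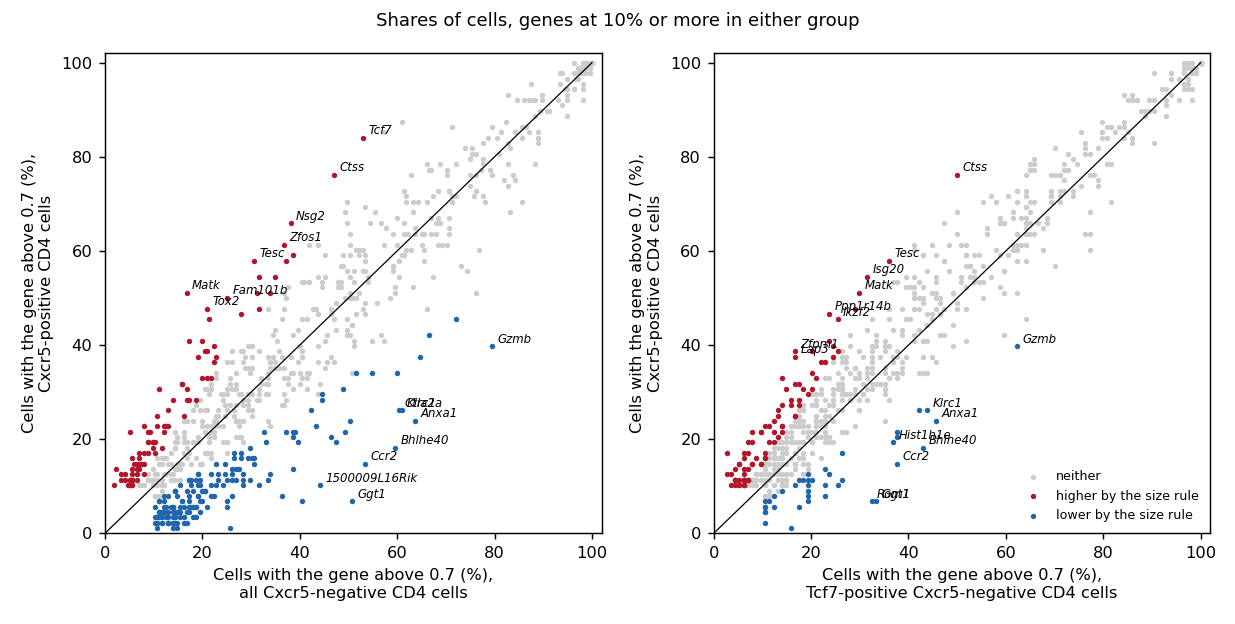
Share of Cxcr5-positive CD4 cells with each gene (%, y axis) against the share of all Cxcr5-negative CD4 cells (%, x axis, left) or of those with Tcf7 (right), for genes of the anti-IL-2 library; red and blue points pass the size rule as higher or lower and the line marks equal shares. On the left 90 genes are red and 167 blue; on the right 88 are red and 40 blue, with Ctss, Tesc, Isg20 and Matk above the line in both panels.

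Of 8 measured genes in the list for naive and stem-like cells, 5 were higher and 0 lower, against 11.8% and 22.0% of all counted genes, with a median log2 ratio of 0.64. Beside Tcf7 and Nsg2 these were Id3, an inhibitor of E proteins, at 59.1% against 38.6%, the lymph node homing receptor Ccr7 at 37.5% against 22.8%, and Dapl1 at 11.4% against 4.2%. Il7r, the IL-7 receptor, did not pass, at 63.6% against 65.6%.

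Interferon-stimulated genes were in more of the Cxcr5-positive cells. Type I interferons act through the factor ISGF3, which binds the interferon-stimulated response element in the promoters of antiviral genes. Of 19 counted type I interferon genes, 10 were higher and 0 lower, against 11.8% and 22.0% of all counted genes, and the median log2 ratio was 0.64. Cells with 10 or more of the 20 measured genes made up 42.0% of Cxcr5-positive and 16.7% of Cxcr5-negative CD4 cells. Usp18, a protease that removes ISG15 and damps interferon signalling, was detected in 27 of 88 cells, 30.7% (21.3 to 41.4), against 11.2% (7.3 to 16.2). Oasl2, of the oligoadenylate synthetase family, was detected in 21.6% (13.5 to 31.6) against 5.1% (2.6 to 9.0). Isg20, an exonuclease gene, was detected in 54.5% (43.6 to 65.2) against 31.6% (25.5 to 38.3). In each of these the intervals did not overlap, but these genes were named for their large differences. The erythroid or macrophage-marker cells also carried these genes, with Usp18 and Oasl2 each in 24.2%, Isg20 in 30.3% and Oas1a in 45.5%. Cmpk2 was in 21.6% against 8.8%, Slfn5 in 39.8% against 22.3%, Oas1a in 54.5% against 34.9%, Ifit1 in 28.4% against 16.7%, Ifit3 in 21.6% against 9.3%, Ifit3b in 19.3% against 8.8%, and Mx1 in 11.4% against 5.6%. Ifit3 and Ifit3b are close copies whose reads the counting could divide, so their separate values are uncertain. Isg15 and Irf7 did not pass, at 70.5% against 49.8% and 69.3% against 53.5%. Of 8 counted interferon-gamma genes, Irgm2 was higher (19.3% against 10.2%) and Gbp3 lower (10.2% against 19.5%).

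The repeat at the centre of that response element, GAAA and GAAA with any 2 bases between them, was searched on both strands in the 250 bases before the start of each gene (RefSeq, GRCm38.p6). It was found in 9 of the 15 measured type I interferon genes with a promoter in the table (60.0%), in 3.05% of all 27025 promoters and in 5.58% of the 1433 promoters of genes in the files. Of 14 follicular helper genes with a promoter, 1 (Il4) had a match. The promoters of 4 higher genes with a match are shown because they share it at different places: Ifit1 (chr19:34640639-34640888, plus strand), Ifit3 (chr19:34583279-34583528, plus strand), Oas1a (chr5:120907526-120907775, minus strand) and Slfn5 (chr11:82951852-82952101, plus strand). Each sequence reads 5′ to 3′ along the gene, with the matches in capitals, and a match on the other strand appears as TTTC, 2 bases and TTTC.
Ifit1: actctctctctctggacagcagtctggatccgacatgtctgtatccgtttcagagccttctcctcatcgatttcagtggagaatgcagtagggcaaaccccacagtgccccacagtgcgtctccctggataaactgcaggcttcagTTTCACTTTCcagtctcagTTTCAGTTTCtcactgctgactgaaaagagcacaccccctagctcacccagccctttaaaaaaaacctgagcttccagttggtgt
Ifit3: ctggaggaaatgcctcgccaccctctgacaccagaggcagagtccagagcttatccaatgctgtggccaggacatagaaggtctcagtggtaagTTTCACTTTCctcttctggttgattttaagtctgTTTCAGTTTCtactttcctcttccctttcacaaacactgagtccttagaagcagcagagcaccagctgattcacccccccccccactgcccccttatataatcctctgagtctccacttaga
Oas1a: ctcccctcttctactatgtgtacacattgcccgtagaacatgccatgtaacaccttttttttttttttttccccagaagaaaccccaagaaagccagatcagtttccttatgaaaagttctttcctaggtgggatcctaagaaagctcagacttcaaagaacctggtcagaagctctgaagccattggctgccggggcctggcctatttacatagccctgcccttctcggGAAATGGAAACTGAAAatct
Slfn5: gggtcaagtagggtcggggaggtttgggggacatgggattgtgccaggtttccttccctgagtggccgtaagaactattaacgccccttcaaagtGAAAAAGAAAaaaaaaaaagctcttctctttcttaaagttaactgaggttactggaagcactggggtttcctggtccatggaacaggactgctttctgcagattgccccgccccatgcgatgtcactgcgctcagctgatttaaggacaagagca
Ifit1 and Ifit3 each hold 2 separate matches on the opposite strand, Oas1a 2 that overlap near its start, and Slfn5 1. A match describes the letters and was not tested as a binding site.

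Effector genes were in fewer of the Cxcr5-positive cells. The lower genes had more values close to the threshold, with a median of 3.96% of CD4 cells within 0.2 of it, against 0.66% for the higher genes. The part of the batch shift in this was not tested. Shares were also read as values more than 0.7 above the mean undetected value of the 30 nearest cells, called the local baseline here and chosen after seeing the data. Ggt1, which encodes gamma-glutamyltransferase, was in 6 of 88 cells, 6.8% (2.5 to 14.3), against 50.7% (43.8 to 57.6), and in 4.5% against 34.4% above the local baseline. Bhlhe40, a transcription factor of effector T cells, was in 18.2% (10.8 to 27.8) against 59.5% (52.6 to 66.2), and in 13.6% against 44.7% above the baseline. Gzmb, which encodes granzyme B, was in 39.8% (29.5 to 50.8) against 79.5% (73.5 to 84.7), and in 22.7% against 55.8%. For these 3 genes the deficit stood by both readings. For Ccr2, an inflammatory chemokine receptor, shares of 14.8% and 53.5% became 1.1% and 24.2%. For Klrc1, an NK-cell receptor, 26.1% and 60.9% became 1.1% and 19.5%. For Anxa1, which encodes annexin A1, 23.9% and 63.7% became 3.4% and 13.5%. These 3 kept their direction, but their absolute shares differed by a large margin. Hist1h1e, a linker histone gene, was in 19.3% against 47.4%, and in 18.2% against 44.2% above the baseline.

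**Figure D4:**
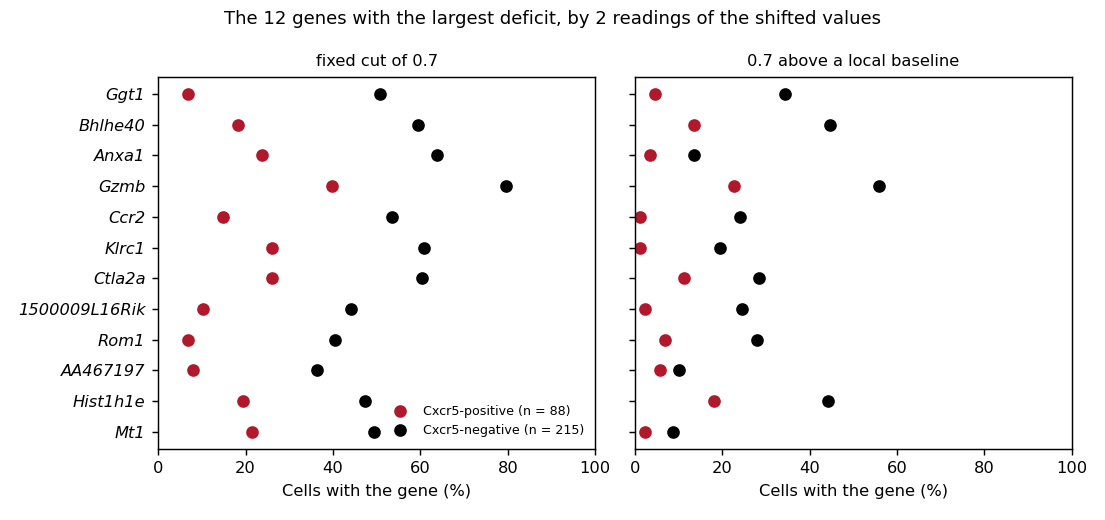
Share of cells (%, x axes) with each of the 12 lower genes of largest deficit (y axis) in Cxcr5-positive (red) and Cxcr5-negative (black) CD4 cells, with a fixed threshold of 0.7 (left) and with values more than 0.7 above a local baseline (right). The red point lies left of the black one for all 12 genes in both panels, but the shares of Anxa1, Klrc1, Ccr2 and Mt1 drop, for Klrc1 from 60.9% to 19.5% in the Cxcr5-negative cells.

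By group, 6 of 10 counted cytotoxic genes were lower and 0 higher (median log2 ratio -0.91), against 22.0% of all counted genes lower. Beside Gzmb and Klrc1 these were Gzma (23.9% against 50.2%), Gzmk (11.4% against 26.0%), Klrd1 and Serpinb9 (34.1% against 60.0%). Of 10 counted Th1 and effector genes, 5 were lower and 0 higher, among them Bhlhe40, Ccr2, Havcr2 and Ly6c2. Their median log2 ratio was -0.60, and -1.49 above the local baseline. Il2ra, the high-affinity chain of the IL-2 receptor, was in 11.4% against 18.6%, and Cish, a STAT5 target, in 2.3% against 11.6%. With Bhlhe40 these were the 3 lower genes of 7 counted in the IL-2 receptor and STAT5 list, whose median was 0.02 and, above the local baseline, -0.77. Among the Cxcr5-negative CD4 cells with Tcf7, Il2ra was in 9.6%. Against those cells Bhlhe40 was the 1 lower gene of 6 counted in this list (median 0.01), beside 5.83% lower over all 686 genes. In the regulatory T-cell list Ikzf2 was higher and Il2ra and Capg lower of 8 counted against all Cxcr5-negative CD4 cells. These counts were near the shares of all 760 counted genes, 11.8% higher and 22.0% lower. Foxp3 was in 0 of 88 cells and did not reach 10% of the Cxcr5-negative CD4 cells either, so it was not counted. The setting of 3 cells for a group with 0 is 3.41% here, which is not an interval. Cd160 was the 1 higher, a share near that of all genes, and Havcr2 the 1 lower of 8 counted inhibitory receptor and anergy genes.

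Dividing cells were a smaller share. Mki67 and Top2a were detected together in 14 of 88 Cxcr5-positive cells, 15.9% (9.0 to 25.2), and in 26.0% (20.3 to 32.5) of Cxcr5-negative CD4 cells. The intervals overlapped. Of 29 cell cycle genes, 19 were lower and 0 higher, against 22.0% and 11.8% of all counted genes, with a median log2 ratio of -0.92 and of -1.71 above the local baseline. Birc5, which encodes survivin, was in 20.5% against 38.6%, and the cyclin gene Ccna2 in 15.9% against 27.9%. A gene of the pre-replication complex, Mcm6, did not pass, at 53.4% against 47.9%.

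Since 84.1% of the cells carried Tcf7, they were also set against the 114 Cxcr5-negative CD4 cells with Tcf7, whose own Tcf7 share is fixed by that choice. The 14 Cxcr5-positive cells without Tcf7 were kept in, so the groups were not matched for Tcf7. Fewer differences were then past the size rule in the lower direction. Of 686 genes, 88 (12.8%) were higher and 40 (5.83%) lower, with a median log2 ratio of 0.10. The split was 69 higher and 61 lower when the reference was weighted to the same numbers of detected genes (medians 280 and 262.5), and 75 higher and 15 lower among genes with few values near the threshold. Matk, at 29.8% in the reference, Tox2 (28.9%), Izumo1r (23.7%), Ctss (50.0%), Tesc (36.0%), Ikzf2 (25.4%) and Isg20 (31.6%) were still higher in the Cxcr5-positive cells. Zfpm1, which encodes the GATA cofactor FOG1, was in 38.6% against 16.7%, Lap3, a leucine aminopeptidase gene, in 37.5% against 16.7%, and Ppp1r14b in 46.6% against 23.7%. Lman1, a cargo receptor of the secretory pathway, was in 33.0% against 14.0%. In the erythroid or macrophage-marker cells Lap3 was in 78.8%, Ppp1r14b in 42.4%, Lman1 in 39.4% and Zfpm1 in 9.09%.

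Other genes came close to the Tcf7-positive reference. The list counts here stand beside 12.8% higher and 5.83% lower over all 686 genes. Il6ra was in 40.9% against 33.3%, Sostdc1 in 28.4% against 24.6%, Nsg2 in 65.9% against 58.8%, Fam101b in 50.0% against 43.0%, and Ccr7 in 37.5% against 36.8%. None of these 5 passed the size rule, and the CD30 ligand gene Tnfsf8 was at 61.4% in both. In the 74 Cxcr5-positive cells with Tcf7, Il6ra was in 45.9%, Sostdc1 in 29.7%, Nsg2 in 73.0% and Ccr7 in 41.9%. Tnfsf8 was in 64.9% and Gzmb in 28.4% of those 74 cells, to which the size rule was not applied. Of the 16 counted follicular genes 4 were higher (Tox2, Izumo1r, Angptl2 and Pou2af1) and 0 lower, with a median of 0.28. The naive, memory and stem-like list had 1 of 7 higher (Dapl1), a share near that of all genes, and a median of 0.16 (0.01 above the local baseline). Of the 19 type I interferon genes 6 were higher and 0 lower (median 0.28), with Usp18 at 14.9%, Oasl2 at 9.6% and Cmpk2 at 9.6% in the reference. Dividing cells made up 15.8% (9.6 to 23.8) of the reference, and of 18 counted cell cycle genes 1 was higher and 2 lower. The cell cycle median was 0.03, and -0.58 above the local baseline, a change of sign. Lower genes included Gzmb, at 62.3% in the reference, Bhlhe40 (43.0%), Ccr2 (37.7%) and Ggt1 (33.3%), with 4 of 10 cytotoxic genes lower (median -0.45). Above the local baseline Gzmb was in 22.7% against 32.5% and no longer passed, Ccr2 was in 1.1% against 10.5%, and 11 of the 15 named lower genes still passed. None of those 15 (0) was among the genes with few values near the threshold.

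**Figure D5:**
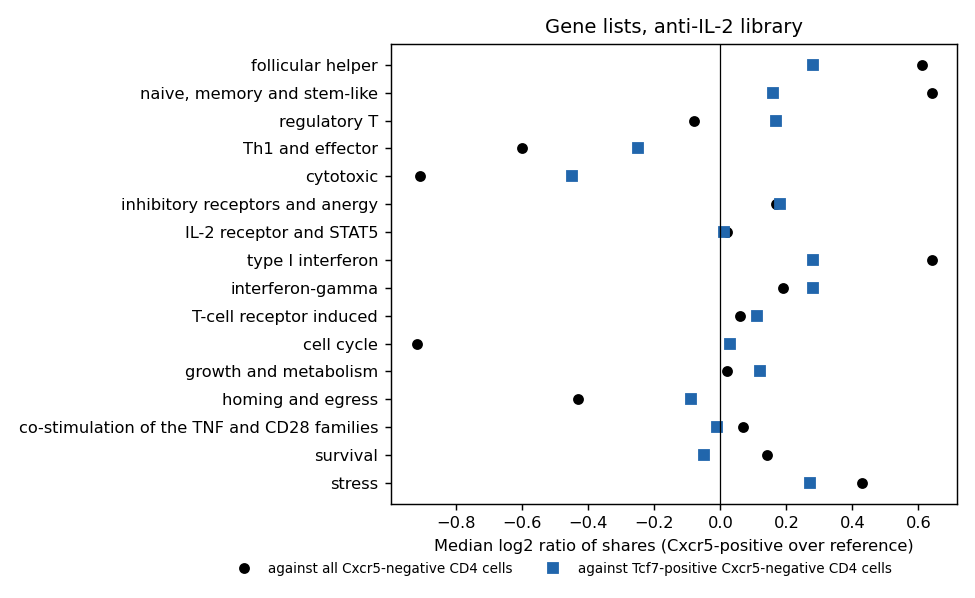
Median log2 ratio of shares (x axis) over the counted genes of each list (y axis), Cxcr5-positive CD4 cells over all Cxcr5-negative CD4 cells (black circles) or over those with Tcf7 (blue squares). The follicular and type I interferon medians are 0.61 and 0.64 against all and 0.28 each against the Tcf7-positive reference, and the cell cycle median is -0.92 and 0.03.

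The 101 Cxcr5-negative CD4 cells without Tcf7 stood further away. Of 800 genes, 120 (15.0%) were higher and 254 (31.8%) lower in the Cxcr5-positive cells, with a median of -0.14 and deeper reference cells (a median of 321 detected genes). Of the 16 follicular genes 9, and of the 19 type I interferon genes 13, were higher, with 0 of either lower. Matk was in 2.0% of this reference, Oasl2 in 0.0%, Il6ra in 5.0%, and Fam101b in 5.0%, whereas Gzmb was in 99.0%. Dividing cells were 37.6% (28.2 to 47.8), and 23 of 29 cell cycle genes were lower.

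The 88 cells were not uniform. The 14 cells without Tcf7 had more detected genes (median 396.5) than the 74 with it (269), and their values are given beside that gap in depth. Gzmb was detected in 14 of those 14 and in 21 of the 74 (28.4%). Tox2 was in 2 of the 14 and in 40 of the 74 (54.1%), and Il6ra in 2 and in 34 (45.9%). Icos was in 91.9% of the 74 and 92.9% of the 14. Of the 14 cells without Tcf7, 9 had Mki67 (64.3%), against 12 of the 74 (16.2%), and Gzmb was in 12 of the 14 dividing cells. Gzmb was also in 8 of 33 erythroid or macrophage-marker cells (24.2%), and the part of depth, division and background in these splits was not tested. Among the 45 Matk-positive cells, 29 (64.4%) had Tox2 and 26 (57.8%) had Izumo1r, while of the 43 without Matk 13 (30.2%) and 10 (23.3%) did. Sostdc1 and Izumo1r went the other way: 6 of 36 Izumo1r-positive cells (16.7%) had Sostdc1, and 19 of the 52 others (36.5%) did. The 53 cells without Gzmb all had Tcf7, and 34 of them (64.2%) had Tox2, against 8 of the 35 (22.9%) with Gzmb. Il2 was detected in 5 cells, and 5 of these had Tox2, against 37 of the 83 others (44.6%). That count is too small for a reading, and the pairs given here were picked from a larger set.

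Of 785 CD8 cells in the same library, 57 had Cxcr5, 7.26% (5.55 to 9.31). The Cxcr5-positive CD4 and CD8 cells had a median of 280 and 329 detected genes. Of 797 genes, 66 (8.28%) were higher and 257 (32.2%) lower in the CD4 cells, and weighting the CD8 cells to the same numbers of detected genes, in 5 bands, gave 139 and 126. Maf was in 59.1% of the CD4 and 3.5% of the CD8 cells, Cd40lg in 58.0% and 5.3%, the selenoprotein gene Sepp1 in 58.0% and 14.0%, Matk in 51.1% and 8.8%, and Il6ra in 40.9% and 3.5%. The opposite held for Gzma (23.9% and 98.2%), Klrd1 (12.5% and 78.9%) and Klrc1 (26.1% and 91.2%). Those 3 held their direction above the local baseline, where Gzma was in 18.2% and 93.0%. Ccr2, at 14.8% and 82.5%, did not keep its gap there (1.1% and 1.8%), and Anxa1 turned from 23.9% and 86.0% to 3.4% and 0.0%. Tcf7 was in 84.1% of the CD4 and 73.7% of the CD8 cells. Of the 19 type I interferon genes 2 were higher and 2 lower, with a median of 0.04, against a median of -0.24 over all 797 genes.

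In the tacrolimus library the same thresholds found 12 Cxcr5-positive cells among 294 CD4 cells, 4.08% (2.13 to 7.02), and 0 among 1006 CD8 cells. Treatment and library cannot be told apart, and the tacrolimus values carry no batch shift, so the shares are set side by side only. The 12 cells had a median of 267 detected genes, against 400.5 in the 282 Cxcr5-negative CD4 cells, and 86 of 804 genes (10.7%) were higher and 320 (39.8%) lower. All 12 had Tcf7, against 11.3% of the negatives, and 10 of 12 had Nsg2 and Il6ra, against 5.7% and 7.1%. Tox2 and Izumo1r were each in 4 of 12, against 4.3% and 13.1%. Gzmb and Bhlhe40 were each in 1 of 12, against 89.4% and 64.9%. Ggt1 and Ccr2 were each in 0 of 12, with an exact interval of up to 26.5%. Among these 9 genes the direction in the 12 cells was that seen in the 88. The 9 were picked from the named genes, and the share of all counted genes with the same direction was not counted. The part of depth in these values was not tested. Other named genes went the other way. Maf was in 5 of 12 against 65.2% and Pdcd1 in 6 of 12 against 64.2%. Zfpm1, Lap3 and Fos were also lower in the 12 cells than in their reference.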

How the data were processed

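Spleen T cells of 1 anti-IL-2 and 1 tacrolimus library were profiled with a droplet-based 5′ kit, per the labels' protocols. Reads were processed with Cell Ranger 3.1.0 and Seurat on the build mm10, per the submitters' processing notes; Seurat's version and the filters are not given in the sources used here. The authors deposited 2000 genes per cell as natural log values. For anti-IL-2, 13.9% of values were below 0 and 42.0% were 0, as batch-integrated values are, and for tacrolimus 0 values were below 0. The tacrolimus data also held 308 anti-IL-2 columns, 19 of them Cxcr5-positive CD4 cells, identical to their originals and used once. The libraries shared 4 barcodes, of which 0 belonged to those cells. T-cell receptor sequences were not analysed here, and some genes are not reported here.

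The members and gene lists were chosen with earlier results of these data known. Cells with at least 200 genes above 0.7 were kept (1340 of 1551 for anti-IL-2, 1475 of 1688 for tacrolimus), and a cell with both Cd4 and Cd8 was in neither class. No doublet caller was run, since the values are not counts. Shares, exact 95% intervals and ratios were computed in Python 3.11.15 (numpy 2.4.6, pandas 2.3.3, scipy 1.17.1, matplotlib 3.10.9). On simulated data the size and direction of set changes were checked. A first check, on how many lowered genes passed the size rule, fell short of its set level and was replaced. How many unchanged genes passed is not reported here. The dispersion between mice was not measured, since each treatment was 1 library, and depth is given as detected genes per cell, since UMI totals are unknown for the shifted values. Dividing cells had Mki67 and Top2a. Genes were named by a rule: every measured follicular helper gene, the 12 genes of largest difference in each direction between CD4 groups (8 against CD8 cells), up to 4 per other list and direction, the 10 most like Cxcr5, and markers of other cell types. Genes named outside that rule, such as Isg15, Irf7, Il7r, Mcm6 and Ccna2, were chosen after their values were seen. Alternatives changed the threshold (0.5 or 1.0), the gene minimum (0 or 300), depth weighting over 5 bands, the Cxcr5 call, dividing cells, B-cell markers and the measure. A local baseline and the exclusion of genes near the threshold were chosen after seeing the data.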

Additional observations from a re-analysis of the deposited data

Results flagged for a closer look

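Cxcr5 was also present in cells that no comparison used. Of the 155 anti-IL-2 cells with both Cd4 and Cd8a or Cd8b1 above the threshold, 47 had Cxcr5, 30.3% (23.2 to 38.2), a share near that of CD4 cells. By the local baseline 28 of the 47 still had both, 14 had lost Cd4, and 5 were left with Cd4 alone. The 155 cells had a median of 324 detected genes, against 281 in CD4 and 378 in CD8 cells, and whether droplets with more than 1 cell have a part in this class was not tested.

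For 3 named genes the difference between Cxcr5-positive and Cxcr5-negative CD4 cells passed the size rule in both libraries with opposite directions, and this was not tested. Over all 804 genes counted under tacrolimus, 320 (39.8%) were lower and 86 (10.7%) higher. The tacrolimus intervals overlapped for Zfpm1 (5.5 to 57.2 against 34.6 to 46.4) and for Lap3 (0.2 to 38.5 against 26.5 to 37.7). Other named genes, among them Maf, Pdcd1, Lman1, Ddx3x and Ccnd2, had ratios of opposite sign but did not pass in both. Zfpm1 was higher under anti-IL-2 (38.6% against 20.9%) and lower under tacrolimus (3 of 12 cells against 40.4%, log2 ratio -0.69). Lap3 was at 37.5% against 19.1% under anti-IL-2, and in 1 of 12 cells against 31.9% under tacrolimus (log2 ratio -1.94). Fos was at 22.7% against 12.1% under anti-IL-2, and in 1 of 12 cells against 13.1% under tacrolimus (log2 ratio -0.65). The 12 tacrolimus cells had fewer detected genes (median 267) than their reference (400.5), and the part of depth in these values was not tested.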

How the results depend on the processing

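Counts of genes past the size rule moved with several settings, and the causes were not tested. With a minimum of 300 detected genes, which left 29 of the 88 cells, the higher counts were 165 against all Cxcr5-negative CD4 cells, 175 against those with Tcf7 (132 lower) and 136 against Cxcr5-positive CD8 cells. Tcf7 was then in 69% of the cells, and 2 of the 10 genes most like Cxcr5 were the same. With differences of mean deposited values in place of shares the counts were 19 higher and 64 lower against all negatives, 9 and 14 against those with Tcf7, 39 higher against those without Tcf7, and 39 and 97 against CD8 cells. Without dividing cells the lower counts were 77 against all negatives and 145 against those without Tcf7. Weighting to the same numbers of detected genes gave 61 lower against the Tcf7-positive reference and 139 higher and 126 lower against CD8 cells. Clear Cxcr5 calls gave 68 lower against the Tcf7-positive reference. With only genes that had few values near the threshold, the lower counts were 95, 15, 149 and 169 in the order all, Tcf7-positive, Tcf7-negative and CD8. The tacrolimus table as deposited, copies included, gave 31 Cxcr5-positive CD4 cells.

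Of the 32 higher and 27 lower named genes of the first comparison, 32 and 26 still passed the size rule above the local baseline, though 9 of the lower moved by more than their interval. With differences of mean deposited values 8 of the 32 and 19 of the 27 passed, and 1 of the 27 was among the genes with few values near the threshold. Reversals of named genes were checked only against all Cxcr5-negative CD4 cells and against those with Tcf7. Ppp1r14b reversed against all negatives with a minimum of 300 genes (-2.5 points). AA467197 reversed against the Tcf7-positive reference (2.2 points above the local baseline, 0.3 with the cells also chosen anew). That new choice held 85 cells, 80 of them among the 88. Without dividing cells, 2 genes lower against the Tcf7-negative reference turned higher by the size rule. Against CD8 cells 1 lower gene turned higher with a threshold of 1.0, and 1 with a minimum of 300 genes. Reversals that did not pass the size rule, such as Anxa1 against CD8 cells, were not counted there. Recovery of UMIs from the shifted values, which had been planned, was not run. No paired analysis was possible because each treatment had 1 library. The main limits are 1 library per treatment, the batch shift, and a median of 280 detected genes per cell, so that a gene not detected in a cell may still be expressed there.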

Other observations

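Stress and early response genes were counted apart from the lists above. Hspa1a, which encodes an inducible heat shock protein, was in 22.7% of Cxcr5-positive and 13.0% of Cxcr5-negative CD4 cells, and Fos, an immediate early gene, in 22.7% and 12.1%. Both passed the size rule, as 2 of 8 counted stress genes (median log2 ratio 0.43). Fos is also in the list of genes induced by the T-cell receptor, where it was the 1 higher of 10 counted (median 0.06). Over all 760 counted genes 11.8% were higher and 22.0% lower, so that count was near the share of all genes. Of the counted growth and metabolism, survival and co-stimulation genes, 0 passed the size rule in either direction. Socs1, a feedback inhibitor of cytokine signalling, did not pass, at 61.4% (50.4 to 71.6) against 41.9% (35.2 to 48.8), but its intervals did not overlap. Socs1 was named outside the naming rule, after its values were seen. Of the Th17 and Th2 list, 3 genes were measured and 0 reached a share of 10% in either group.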
